A study of Mus musculus with 4 samples.

Results

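C-type lectin receptors are surface proteins that bind sugars or other patterns on microbes and damaged cells, and 10 of them that myeloid cells carry were followed here across the cell clusters and the 4 libraries of a mouse single-cell RNA-seq study. The genes were taken by symbol (Clec4a1, Clec4a2, Clec4d, Clec4e, Clec4n, Clec5a, Clec7a, Clec10a, Clec12a and Mrc1) and not by a cut on their values. Earlier results of these data were known when they were chosen. Of these, 9 were measured among the 32285 genes of the count matrices, and Clec7a was not analysed here. The members fall into groups by how they work. Mrc1, the mannose receptor (CD206), and Clec10a, a receptor for galactose-type sugars, take up what they bind. Clec4n (Dectin-2), Clec4d and Clec4e (Mincle) lack a signalling tail of their own and pair with the Fc receptor gamma chain, which recruits the kinase Syk and then the Card9, Bcl10 and Malt1 complex. Clec5a pairs with the adaptor DAP12, the product of Tyrobp. Clec4a2 (DCIR) and Clec12a carry an inhibitory motif in their tail that recruits phosphatases. Mrc1 is widely used as a marker of macrophages.

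The cells were myeloid-derived suppressor cells (MDSC), made by growing mouse bone marrow for 4 days with recombinant IL-6 and GM-CSF at 40 ng/mL each. The 4 groups were wild-type (WT) C57BL/6J marrow without and with isoproterenol (ISO), an agonist of β-adrenergic receptors, and marrow of a knockout (KO) line on the C57BL/6 background without and with ISO. ISO was at 10 µM, added from the start of culture and renewed daily, and live CD11b+ cells were sorted before capture. Mice were 6 to 10 weeks old according to the methods. The deletion was carried by all cells of the mouse, and the sources do not say how many animals gave each culture. The treatment field of the labels names ISO for all 4 samples, whereas the titles and the methods separate treated from untreated cultures, and the titles were followed. Each group was 1 library, here the set of cells deposited for that sample, so no spread between cultures was measured and no test between groups was possible. The methods describe pooling of cell suspensions before capture, so a library need not be a separate capture. All intervals below are 95% intervals of counting error only.

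The libraries held 2039 to 2790 cells after filtering, 19357824 to 29400468 UMIs and a median of 7484 to 10252 UMIs per cell, and no barcode was shared between libraries. Itgam, which encodes CD11b, had a UMI in 85.2% to 88.4% of the cells of each library. The summed lymphocyte markers were at 5.63 to 7.41 UMIs per 1000000 (CPM), with 1 to 3 of 7 genes at 0. The summed level of 6 eosinophil markers moved with ISO, at 64.9 CPM in WT, 7.31 in WT+ISO, 86.3 in KO-labelled and 11.5 in KO+ISO-labelled, with 0 to 2 genes at 0, and 6 mast cell or basophil markers were at 10.0, 5.10, 3.47 and 2.07 CPM, with 1 to 3 at 0. Their part in the whole-library levels of the receptors was not tested. In the macrophage-like cells described below, the eosinophil markers summed to 2.47 to 8.69 CPM. The 2 knockout libraries are called KO-labelled and KO+ISO-labelled, and every genotype direction rests on their labels.

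On chromosome 6 lie 7 of the 9 genes, and 5 of those 7 fall in the stretch from Clec4a1 to Clec4e, the Dectin-2 family cluster. In RefSeq coordinates of GRCm38.p6, the assembly the files name as mm10, these were Clec4a1 (ENSMUSG00000049037, chr6:122921848-122934619), Clec4a2 (ENSMUSG00000030148, chr6:123122690-123143999), Clec4n (ENSMUSG00000023349, chr6:123229843-123247024), Clec4d (ENSMUSG00000030144, chr6:123262107-123275268) and Clec4e (ENSMUSG00000030142, chr6:123281789-123289871). Clec12a (ENSMUSG00000053063) was at chr6:129349783-129365303 and Clec5a (ENSMUSG00000029915) at chr6:40574898-40585805. Mrc1 (ENSMUSG00000026712), whose locus also holds the microRNA gene Mir511, was at chr2:14229414-14332023 and Clec10a (ENSMUSG00000000318) at chr11:70166623-70170836. Reads of near-identical neighbours can be split between genes. Of the distinct 90-base windows in the last 500 bases of the protein-coding transcripts, 5.93% were shared with Clec4a4 for Clec4a2 and 7.66% with Mgl2 for Clec10a, and none was shared with another gene for the other 7 members.

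The RefSeq promoter table held 7 of the 9 measured members. The stretches from 250 to 76 bases before the start are shown for Mrc1 and Clec4a1, which were lower in WT+ISO than in WT, and for Clec4d and Clec5a, which were within 1.5-fold. Each is written 5′ to 3′ on the strand of the gene, and capitals mark matches to GAGGAAG, the core bound by the myeloid factor PU.1, or to its reverse complement CTTCCTC.
Mrc1 (chr2:14229164-14229338, plus strand): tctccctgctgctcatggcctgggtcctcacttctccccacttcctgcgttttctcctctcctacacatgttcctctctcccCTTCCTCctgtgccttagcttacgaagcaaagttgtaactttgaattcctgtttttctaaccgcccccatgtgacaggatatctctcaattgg
Clec4a1 (chr6:122921598-122921772, plus strand): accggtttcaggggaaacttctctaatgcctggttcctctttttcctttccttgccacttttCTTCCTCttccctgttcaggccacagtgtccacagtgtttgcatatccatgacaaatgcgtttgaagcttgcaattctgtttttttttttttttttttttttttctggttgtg
Clec4d (chr6:123261857-123262031, plus strand): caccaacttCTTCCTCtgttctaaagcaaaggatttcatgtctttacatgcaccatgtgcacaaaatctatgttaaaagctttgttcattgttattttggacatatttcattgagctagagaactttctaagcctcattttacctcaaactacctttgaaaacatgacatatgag
Clec5a (chr6:40585881-40586055, minus strand): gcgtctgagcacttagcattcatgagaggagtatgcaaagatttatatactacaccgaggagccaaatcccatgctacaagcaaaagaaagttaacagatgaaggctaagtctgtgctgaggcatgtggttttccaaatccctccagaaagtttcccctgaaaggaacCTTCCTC

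On either strand of the 250 bases before the start, GAGGAAG was present in 5 of 7 members, against 10.6% of all 32851 promoters in the table. These were Clec4a1, Clec4d, Clec5a, Clec12a and Mrc1, and Mrc1 and Clec5a held 2 matches each. TGACG, the core of the element bound by the cAMP-activated factor CREB, was in none of the 7 and in 17.8% of all promoters. TTNNGCAA, a C/EBP site, was in Clec4e and Clec12a and in 9.56% of all promoters. TGANTCA, an AP-1 site, was in Clec12a alone (6.75% of all), and TTCNNNGAA, a STAT site, in Clec4a2 alone (7.02%). The letters describe these windows only, and the windows of Clec12a lie inside longer transcripts in the GENCODE annotation. For Clec4d and Clec4e, no GENCODE transcript of the gene held the bases just after the start used here.

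Clustering was done without the lectin genes and the genes of their signalling pathway, so the clusters did not use the members' values. It gave 7 clusters. The macrophage-like cluster (1957 cells, median 14619 UMIs) was led by Fgf13, Mmp12 and C1qb. Of 8 macrophage markers, 5 were in at least 10% of its cells. In the order WT, WT+ISO, KO-labelled and KO+ISO-labelled, they summed to 422, 334, 621 and 548 CPM there. The 8 monocyte markers summed to more, at 2454, 2065, 3015 and 2908 CPM, so the name does not set these cells apart from monocytes. Of the neutrophil lineage, 1526 cells were azurophil-granule progenitor-like (Nkg7, Mpo, Elane), 1245 specific-granule neutrophil-like (Ltf, Camp) and 1901 mature neutrophil-like (Retnlg, Mmp9). A dendritic cell-like cluster held 79 cells (Ccl5, Ccr7, Ccl22). The other 2 clusters kept no name: 1731 cells led by Gpnmb, with a median of only 2920 UMIs, and 864 cells led by Kcnq5 and Serpina3g. Marker lists and members were chosen with earlier results of these data known.

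The 9 receptors were spread unevenly over the clusters, and Mrc1, Clec10a and Clec4a1 had at least 80.7% of their UMIs in the macrophage-like cells. Of all Mrc1 UMIs, 97.7% were in the macrophage-like cluster, where the level was 194 ± 106 CPM (SD over the 4 libraries, which are 4 different groups, n = 4). The lowest of the 4 libraries there was at 58.3 CPM and the highest at 314, and the next cluster, led by Kcnq5, was at 5.42 ± 3.31. Each library's macrophage-like level was above every value of the other 5 clusters in the order. Mrc1 had a UMI in 43.9% of macrophage-like cells and in 1.57% of azurophil-granule progenitor-like cells, whose median depth of 16362 UMIs was higher. The source of the second share was not tested.

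Clec10a had the same 2 leading clusters with a smaller gap. The macrophage-like cluster held 80.7% of its UMIs at 36.2 ± 17.0 CPM (n = 4), and the cluster led by Kcnq5 held 12.0% at 9.47 ± 5.04. Their ranges over the libraries overlapped, but within each library the macrophage-like level was the higher. In the order WT, WT+ISO, KO-labelled and KO+ISO-labelled it was 32.5, 14.6, 54.6 and 43.1 CPM, against 11.4, 3.89, 15.5 and 7.16. Clec10a had a UMI in 22.0% of macrophage-like cells against 0.852% of azurophil-granule progenitor-like cells. In the small dendritic cell-like cluster, pooled over libraries, Clec10a was at 80.3 CPM (64.1 to 99.5, from 84 UMIs) and Mrc1 at 15.3 CPM (8.75 to 24.8, from 16 UMIs). Macrophage-like cells, pooled the same way, were at 40.2 CPM for Clec10a and 219 CPM for Mrc1. The pooled order of these 2 genes between the macrophage-like and the dendritic cell-like cells was therefore opposite. In WT the Clec10a intervals of macrophage-like and dendritic cell-like cells overlapped, at 32.5 CPM (28.3 to 37.0) and 36.8 (19.6 to 63.0). They also overlapped in KO+ISO-labelled, at 43.1 CPM (38.4 to 48.3) and 66.2 (33.1 to 119).

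Clec4a1 was at 20.8 ± 3.85 CPM (n = 4) in the macrophage-like cluster, which held 82.0% of its UMIs, and at 13.2 ± 4.86 in the cluster led by Gpnmb, and these ranges overlapped. Within each library the macrophage-like level was the higher, at 18.4, 16.7, 24.7 and 23.3 CPM against 10.1, 8.96, 14.0 and 19.7 in the library order above. The counting intervals of both clusters were apart in KO-labelled only. All other clusters in the order averaged 1.52 CPM or less.

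The 3 receptors that pair with the Fc receptor gamma chain were highest in the low-RNA cells led by Gpnmb or in mature neutrophil-like cells. Clec4n was at 1895 ± 172 CPM (n = 4) in the Gpnmb cluster, at 1093 ± 36.9 in the macrophage-like cluster and at 234 ± 40.8 in mature neutrophil-like cells, with no overlap between these. Clec4d was at 454 ± 109 CPM in the Gpnmb cluster, then at a mean of 174 CPM in both the macrophage-like and the mature neutrophil-like cells (SD 45.7 and 28.8). Their order differed between libraries. In WT, macrophage-like cells were lower, at 164 CPM (155 to 174) against 216 (195 to 238), and in KO-labelled at 138 against 171. In WT+ISO they were higher, at 241 CPM (227 to 255) against 162 (148 to 176), and in KO+ISO-labelled the values were 155 and 150 with overlapping intervals. Clec4e was at 239 ± 12.0 CPM in mature neutrophil-like cells and 238 ± 29.4 in the Gpnmb cluster, with overlapping ranges, and at 127 ± 9.69 in macrophage-like cells. All 3 had their lowest mean in azurophil-granule progenitor-like cells, at 12.4 ± 3.76, 9.04 ± 1.16 and 21.6 ± 3.03 CPM, though for Clec4n this range overlapped that of specific-granule cells (17.8 ± 7.26).

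The inhibitory receptors had another order. Clec12a was highest in azurophil-granule progenitor-like cells at 504 ± 45.8 CPM (n = 4), then at 418 ± 27.6 in specific-granule cells, 267 ± 42.6 in the Kcnq5 cluster and 248 ± 16.1 in mature neutrophil-like cells. It was lowest in the Gpnmb and the macrophage-like clusters, at 130 ± 54.7 and 123 ± 22.3 CPM, with overlapping ranges. Clec4a2 was highest in specific-granule cells at 210 ± 25.4 CPM, was at 94.8 ± 8.83 in macrophage-like cells and was lowest in the Kcnq5 cluster at 19.8 ± 5.96. Clec5a, the DAP12 partner, varied least, from 226 ± 20.4 CPM in mature neutrophil-like cells to 113 ± 18.5 in azurophil-granule progenitor-like cells. The plot of levels by cluster shows these orders library by library.

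**Figure D1:**
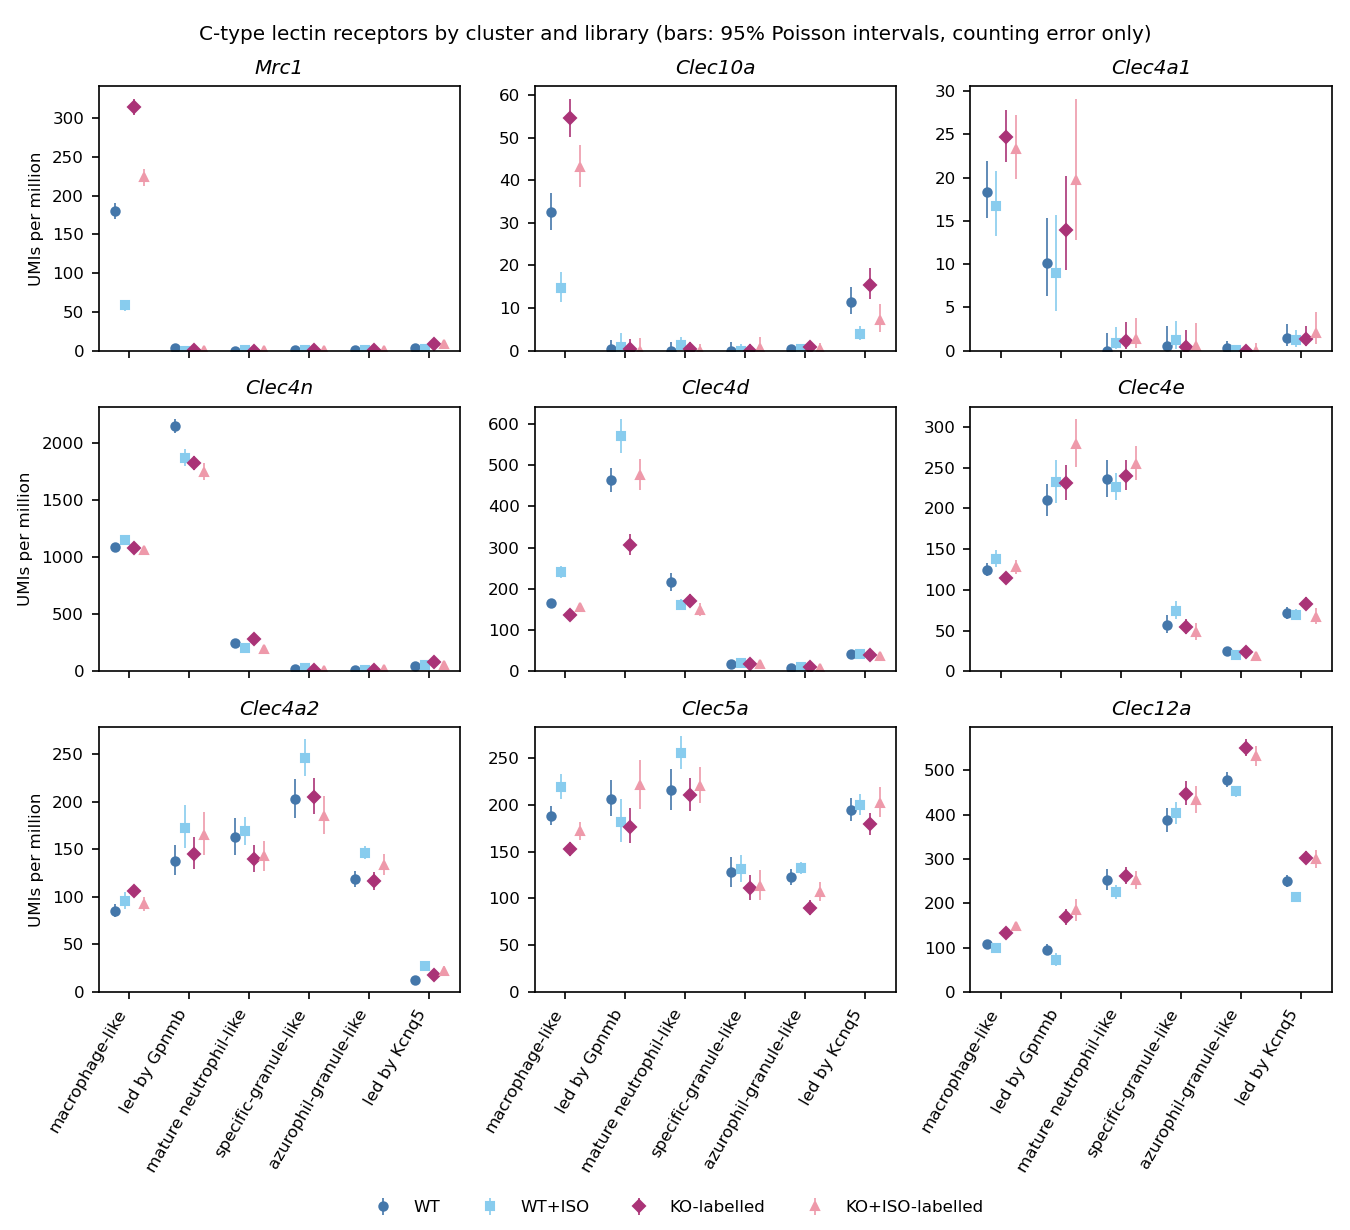
CPM (linear axes from 0, a scale of its own for each gene) of the 9 measured receptors in the 6 larger clusters; each symbol is 1 library and bars are 95% Poisson intervals of counting error. Mrc1 stands near 0 outside the macrophage-like cluster, Clec4n and Clec4d are highest in the cluster led by Gpnmb, and Clec12a is highest in the azurophil-granule progenitor-like cells.

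Over the 24 cluster and library sums, the members fell into groups by their log2 levels, given as a description since the points share libraries and clusters. Pearson's r was 0.96 for Clec4d with Clec4n, 0.94 for Clec4d with Clec4e and 0.92 for Clec10a with Mrc1. It was -0.92 for Clec4n with Clec12a. Among 7672 genes, those most like Mrc1 were Timp1 (r = 0.96), H2-Aa (0.96) and Mertk (0.95), and those most like Clec10a were Axl (0.96), Evl (0.95) and F11r (0.94). Pitpna (0.98), Jaml (0.97) and Cd74 (0.97) were nearest to Clec4n, and Lilra6 (0.98), Il13ra1 (0.97) and Tarm1 (0.97) to Clec4e. Nearest to Clec4a1 were Dapk1 (0.97), Sipa1l3 (0.96) and Rere (0.96), to Clec4a2 Cpne2 (0.96), Ankrd12 (0.91) and Pfkfb4 (0.91), and to Clec4d Scaf8, Tmem243 and Arih1 (each 0.98). Clec12a was nearest to Ethe1, Susd1 and Grk6 (each 0.94), and Clec5a to Ptpn1, Shisa5 (each 0.89) and Azin1 (0.88).

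The study asked how β-adrenergic signalling acts on these cells. In the whole WT libraries, ISO went with lower Mrc1, Clec10a, Clec4a1 and Clec4n. Mrc1 was at 51.5 CPM (48.7 to 54.5) in WT, 10.5 (9.40 to 11.8) in WT+ISO, 121 (117 to 125) in KO-labelled and 81.5 (77.5 to 85.6) in KO+ISO-labelled. The order of the libraries was thus WT+ISO lowest and KO-labelled highest, with no overlap of the counting intervals. The log2 ratio of WT+ISO over WT was -2.29 (-2.47 to -2.11), a 4.89-fold lower level, and that of KO+ISO-labelled over KO-labelled was -0.57 (-0.66 to -0.49). The second ratio is just short of 1.5-fold.

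Clec10a was at 11.9 CPM in WT, 4.49 in WT+ISO, 24.8 in KO-labelled and 17.2 in KO+ISO-labelled, the same order as Mrc1. Its log2 ratio with ISO was -1.41 (-1.72 to -1.11) in WT and -0.53 (-0.72 to -0.34) in the KO-labelled pair. Clec4a1 was at 6.48, 3.64, 10.8 and 10.4 CPM in the same order of libraries, with log2 ratios of -0.83 (-1.20 to -0.47) and -0.05 (-0.31 to 0.21). Clec4n was at 530, 320, 583 and 531 CPM, with log2 ratios of -0.73 (-0.77 to -0.69) and -0.13 (-0.17 to -0.10). For each of these 4 genes WT+ISO was the lowest library.

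The other 5 receptors were within 1.5-fold in both ISO comparisons. Clec4d was at 115 CPM in WT, 97.4 in WT+ISO, 100 in KO-labelled and 113 in KO+ISO-labelled, and Clec4e at 96.1, 86.4, 106 and 113. The log2 ratios of this pair with ISO had opposite signs, -0.24 and -0.15 in WT against 0.18 and 0.10 in the KO-labelled pair, though the WT signs turned with clusters weighted alike (0.30 and 0.10). Clec4a2, the inhibitory DCIR, was at 98.7, 125, 106 and 109 CPM, Clec5a at 168, 176, 148 and 166, and Clec12a at 267, 296, 281 and 290. Clec4a2 was highest in WT+ISO (log2 ratio 0.34, 0.27 to 0.42), the library in which Mrc1 was lowest.

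In counts, 4 of 9 members were at least 1.5-fold lower and none higher in WT+ISO than in WT, where 5.50% of the 10771 genes with at least 100 UMIs were that much lower and 1.00% that much higher. The median log2 ratio of the members was -0.24, against -0.02 over all genes. In the KO-labelled pair 0 of 9 passed 1.5-fold in either direction, where 1.58% of 10734 genes did. With equal weight per cell in place of sums, 3 of 9 were lower with ISO in WT, as Clec4a1 was at -0.40, and 2 of 9 in the KO-labelled pair, Mrc1 at -0.75 and Clec10a at -0.68. The share over all genes was not computed with equal weight per cell, so these counts have no background beside them. For the difference between the 2 ISO ratios, the log2 value was 1.72 (1.52 to 1.92) for Mrc1, 0.88 (0.53 to 1.24) for Clec10a, 0.78 (0.34 to 1.22) for Clec4a1 and 0.59 (0.54 to 0.65) for Clec4n, and these 4 of 9 were at least 1.5-fold higher, beside 5.82% of 10753 genes. With 1 library per group, none of these differences was tested, and fewer cells of a type and less RNA per cell cannot be told apart in sums over a whole library.

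The share of macrophage-like cells followed the order of Mrc1 and Clec10a over the libraries, and that of Gpnmb-led cells did not. Macrophage-like cells were 19.0% of cells in WT, 11.9% in WT+ISO, 27.8% in KO-labelled and 24.2% in KO+ISO-labelled, and Gpnmb-led cells were 25.0%, 13.7%, 17.6% and 18.5%. Azurophil-granule progenitor-like cells were 16.1%, 25.7%, 11.6% and 12.9%. When the clusters were weighted alike in both libraries, the log2 ratio with ISO in WT was -1.56 for Mrc1 and -0.76 for Clec10a, but -0.12 for Clec4a1 and 0.016 for Clec4n, whose direction turned. In that weighting Mrc1 and Clec10a were the 2 members past 1.5-fold with ISO in WT, and 1 member was past it for the difference between the ISO ratios. No share over all genes was computed in that weighting.

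Inside the macrophage-like cluster, Mrc1 and Clec10a were again lower with ISO in WT, and the other 7 members were within 1.5-fold. Mrc1 was at 180 CPM (170 to 190) in WT, 58.3 (51.7 to 65.5) in WT+ISO, 314 (304 to 325) in KO-labelled and 223 (212 to 235) in KO+ISO-labelled. The log2 ratio with ISO was -1.63 (-1.82 to -1.44), 3.09-fold lower, in WT and -0.49 (-0.58 to -0.40) in the KO-labelled pair, a difference of 1.14 (0.93 to 1.34). Clec10a was at 32.5, 14.6, 54.6 and 43.1 CPM, with log2 ratios of -1.15 (-1.56 to -0.76) and -0.34 (-0.54 to -0.14). Clec4n was within 1.5-fold at 1090, 1146, 1078 and 1060 CPM. Clec4a1 was at 18.4, 16.7, 24.7 and 23.3 CPM.

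Clec4d went the other way from Mrc1 in these cells. It was at 164 CPM in WT, 241 in WT+ISO, 138 in KO-labelled and 155 in KO+ISO-labelled, with log2 ratios of 0.55 (0.43 to 0.67) and 0.17 (0.06 to 0.28), so WT+ISO, the lowest library for Mrc1, was the highest for Clec4d. In counts, 2 of 9 members (Mrc1 and Clec10a) were at least 1.5-fold lower with ISO in WT and 0 higher, where 3.12% of 8264 genes in the cluster were lower and 2.30% higher. None of the 9 passed in the KO-labelled pair (1.91% of 9109 genes in either direction).

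**Figure D2:**
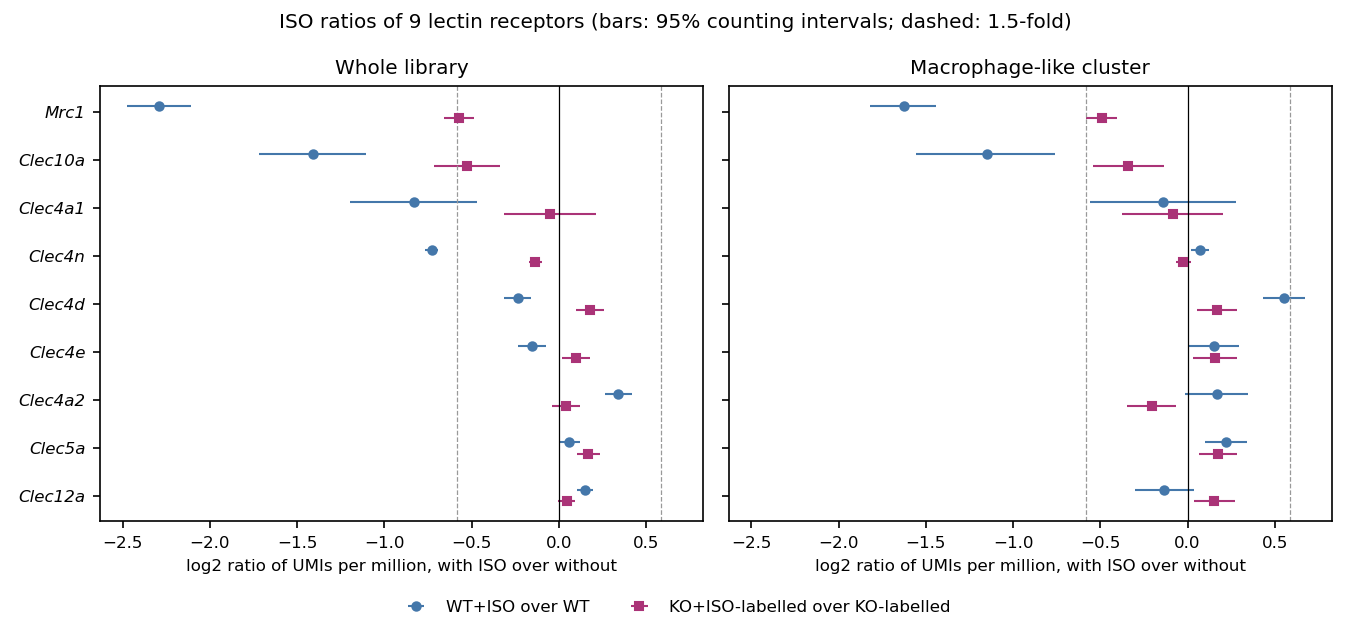
Log2 ratio of CPM with ISO over without ISO for the 9 receptors, in whole libraries (left) and in the macrophage-like cluster (right), for WT (circles) and the KO-labelled pair (squares); bars are 95% counting intervals and dashed lines mark 1.5-fold. Mrc1 and Clec10a stay left of the dashed line in WT in both panels, and Clec4a1 and Clec4n do so in the left panel only.

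The lower Mrc1 was seen both as fewer cells with a UMI and as fewer UMIs in those cells. Of macrophage-like cells, 39.9% had an Mrc1 UMI in WT, 23.7% in WT+ISO, 53.5% in KO-labelled and 43.4% in KO+ISO-labelled. Those cells held a mean of 7.34, 4.42, 8.19 and 7.21 Mrc1 UMIs in the same order of libraries. After thinning each cell to 2000 UMIs the shares were 20.8% (17.0 to 25.0), 8.55% (5.50 to 12.6), 32.3% (29.1 to 35.8) and 25.0% (21.2 to 29.1). Cells with 10 or more Mrc1 UMIs were 11.0% in WT (46 of 419 cells), 2.96% in WT+ISO (8 of 270), 15.4% in KO-labelled (119 of 775) and 10.5% in KO+ISO-labelled (52 of 493). In WT+ISO, 41.9% of the 310 Mrc1 UMIs of the library were in its 10 highest cells. For Clec10a, the 10 highest cells held 53.8% of 132 UMIs in the WT+ISO library and 41.9% of 291 in WT. The counting intervals do not cover this unevenness between cells. Clec10a shares after thinning were 3.59%, 1.86%, 10.1% and 6.50%, and the WT and WT+ISO intervals overlapped (2.02 to 5.85 and 0.606 to 4.28).

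**Figure D3:**
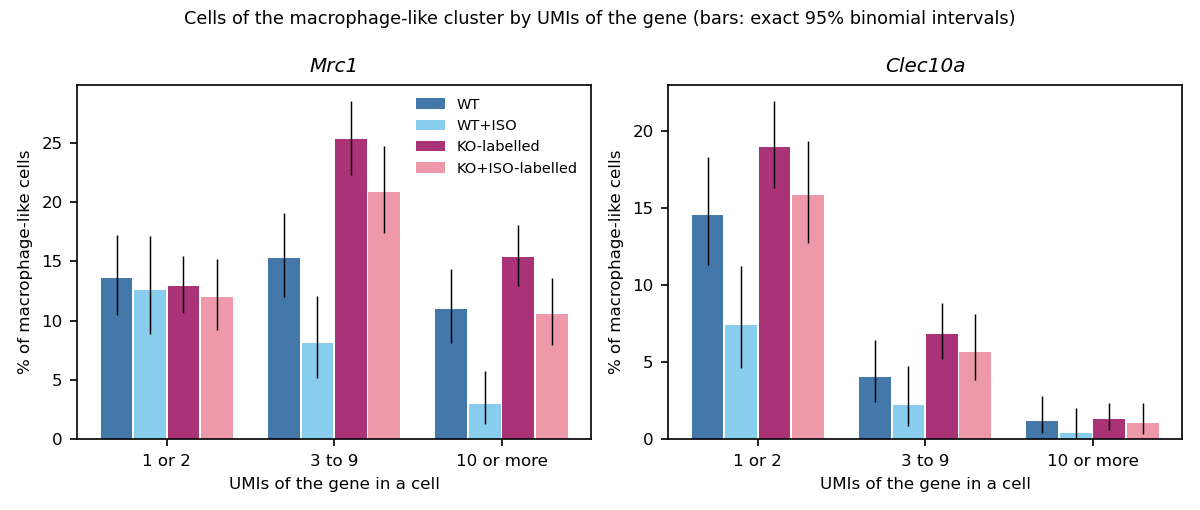
Percent of macrophage-like cells (axis from 0) with 1 or 2, 3 to 9, and 10 or more UMIs of Mrc1 (left) and Clec10a (right) in each library; bars are exact 95% binomial intervals. The share of cells with 10 or more Mrc1 UMIs is lowest in WT+ISO at 2.96% and highest in KO-labelled at 15.4%.

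The macrophage-like cluster was not a uniform set of cells. At a finer resolution it split mainly into 919 cells led by C1qb and Asgr2, 765 cells led by F13a1 and 263 cells of a cluster led by Lypd6b and Matn2. F13a1 is one of the monocyte markers. In the order WT, WT+ISO, KO-labelled and KO+ISO-labelled, Mrc1 was at 300, 124, 545 and 450 CPM in the cells led by C1qb and at 103, 26.2, 102 and 85.6 CPM in those led by F13a1. WT+ISO was the lowest library in both. In the cells led by Lypd6b, Mrc1 was at 11.0, 14.6, 51.3 and 34.6 CPM, from only 12 UMIs in WT and 22 in WT+ISO, and was not lower with ISO in WT. Those low-Mrc1 cells were 14.1% of macrophage-like cells in WT (59 of 419, 10.9% to 17.8%), 27.8% in WT+ISO (75 of 270, 22.5% to 33.5%), 9.29% in KO-labelled and 11.6% in KO+ISO-labelled, so the makeup of the cluster also differed between the libraries. Among the 8 macrophage markers in the macrophage-like cells, some moved with Mrc1 and some did not. The complement genes C1qa, C1qb and C1qc were at 9.84, 42.9 and 13.1 CPM in WT and at 0.206, 4.94 and 0.412 CPM in WT+ISO. C1qb is one of the genes that led the cluster. By contrast, Adgre1 was at 138 and 132, Trem2 at 132 and 125, Apoe at 3.97 and 3.50, and Lgmn at 45.8 and 53.7. The summed level of all 8 macrophage markers there was 422, 334, 621 and 548 CPM, with none at 0, and that of 8 dendritic cell markers, a list that includes MHC class II genes, was 2333, 1146, 2221 and 1800 CPM, with 1 gene at 0 in 1 library. The part of these sub-clusters in the Mrc1 level was not tested.

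**Figure D4:**
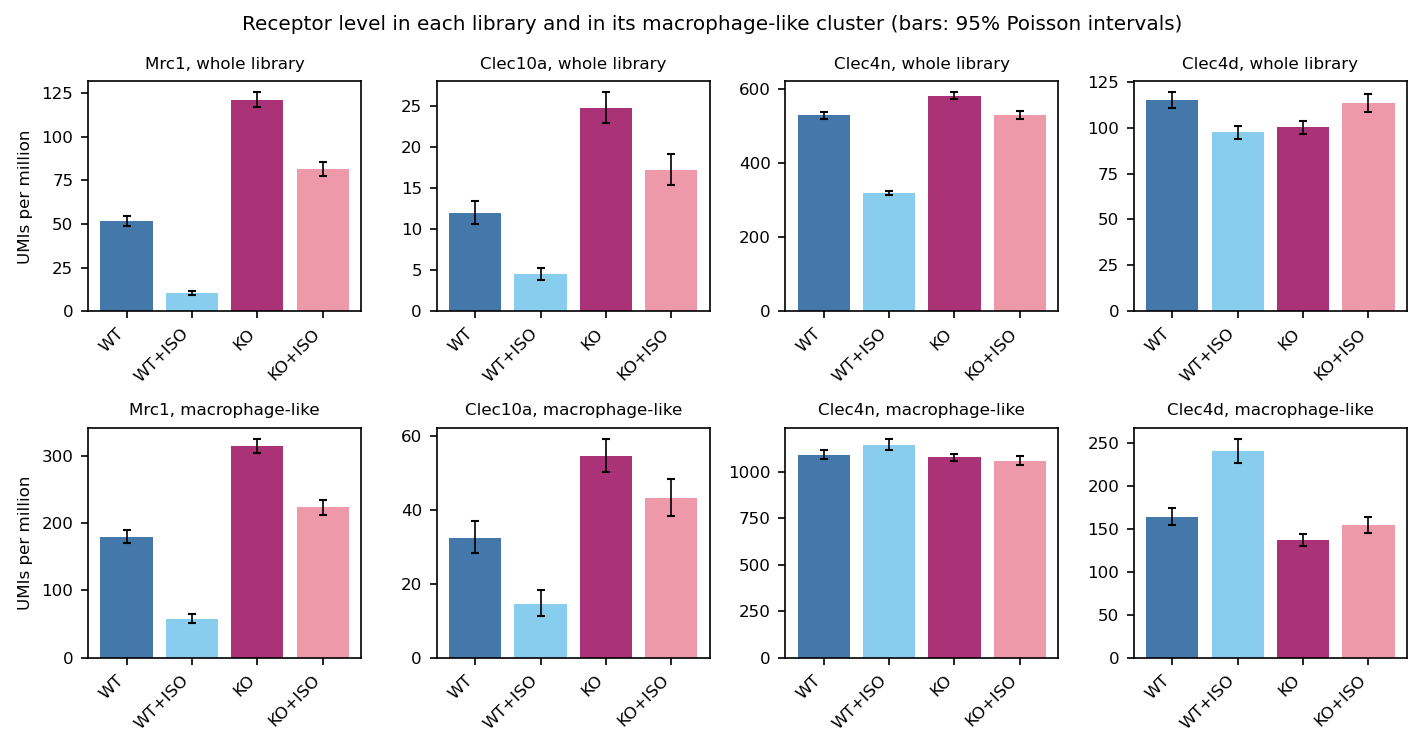
CPM (linear axes from 0) of Mrc1, Clec10a, Clec4n and Clec4d in each whole library (top) and in its macrophage-like cluster (bottom), where KO stands for the KO-labelled libraries; bars are 95% Poisson intervals. Mrc1 and Clec10a are lowest in WT+ISO in both rows, whereas Clec4n is between 1060 and 1146 CPM in the bottom row and Clec4d is highest in WT+ISO there.

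In the other clusters, 4 to 6 of the 9 members had at least 100 UMIs in a pair of libraries. With ISO in WT, 1 of 6 passed 1.5-fold in azurophil-granule progenitor-like cells, beside 2.02% of genes, and 1 of 6 in the Kcnq5 cluster, beside 2.94%. The first was Clec4n, at 13.4 CPM in WT and 7.70 in WT+ISO (log2 ratio -0.80, -1.25 to -0.36), and the second was Clec4a2, at 12.6 and 26.9 CPM (1.09, 0.65 to 1.54). None passed in mature neutrophil-like, specific-granule or Gpnmb-led cells, where 6.27%, 4.37% and 7.04% of genes did. The Clec4n call rested on 89 and 87 UMIs, and after thinning 5 of 355 and 5 of 579 cells had one. Clec4n in azurophil-granule progenitor-like cells of the KO-labelled pair was at 11.7 and 16.7 CPM (0.52, -0.0007 to 1.04). In the KO-labelled pair, 1 of 6 passed in the Gpnmb cluster, beside 3.48% of genes, and 1 of 6 in the Kcnq5 cluster, beside 1.75%. Clec4d was at 307 CPM without and 476 with ISO in the Gpnmb cluster (0.63, 0.47 to 0.80), and at 463 and 570 CPM in the WT pair (0.30, 0.16 to 0.44). Clec4n was at 82.0 and 52.2 CPM in the Kcnq5 cluster (-0.65, -0.93 to -0.38). None passed in mature neutrophil-like, azurophil-granule progenitor-like or specific-granule cells, where 2.68%, 1.83% and 2.20% of genes did.

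The genotype comparisons rest on the labels of the 2 KO-labelled libraries. Without ISO, Mrc1 was 1.23 higher on the log2 scale (1.14 to 1.33) in KO-labelled than in WT, Clec10a 1.05 (0.85 to 1.26) and Clec4a1 0.73 (0.45 to 1.02). These 3 of 9 passed 1.5-fold higher and none lower, where 2.88% of 10861 genes were higher and 1.52% lower. With clusters weighted alike Clec4a1 was at 0.39, which left 2 of 9, and no share over all genes was computed in that weighting. With ISO, Mrc1 was 2.95 higher (2.77 to 3.13), Clec10a 1.94 (1.64 to 2.24), Clec4a1 1.51 (1.17 to 1.86) and Clec4n 0.73 (0.69 to 0.77). These were 4 of 9, with none lower, where 9.08% of 10645 genes were higher and 6.83% lower. Clec4n turned to -0.13 here with clusters weighted alike. The comparisons share libraries with those of ISO and are not separate evidence. Inside the macrophage-like cluster, Mrc1 and Clec10a were higher without ISO at 0.80 (0.71 to 0.90) and 0.75 (0.52 to 0.98), 2 of 9 beside 2.30% of 9127 genes, and none was lower (1.65%). With ISO they were higher by 1.94 and 1.56 (2 of 9, beside 4.90% of 8230 genes), and Clec4d was lower at -0.64 (-0.76 to -0.52), beside 7.69% of genes lower.

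Other C-type lectins were counted from a list of 39 genes. With at least 100 UMIs in the 2 libraries, 3 of 14 were at least 1.5-fold lower with ISO in WT and none was higher: Mgl2, the paralogue of Clec10a, at 82.4 and 28.9 CPM (log2 ratio -1.51), Clec4a3, a neighbour of Clec4a1, at 14.1 and 7.93 CPM (-0.83), and Klrd1 at 3.94 and 0.510 CPM (-2.95). Of all genes, 5.50% were that much lower. In the KO-labelled pair 3 of 16 were lower, beside 0.997% of all genes: Clec4b1 (-0.86), Cd72 (-1.59) and Klrb1b (-0.89). These had under 100 UMIs in the WT pair, where their log2 ratios were -0.85, -2.51 and -1.03. Mgl2 was there at 90.7 and 63.5 CPM (-0.52). Without ISO, Clec4b1 and Klrb1b were higher and Clec4b2 and Klrd1 lower in KO-labelled than in WT, of 17, beside 2.88% of all genes higher and 1.52% lower. With ISO, Clec4a3 and Mgl2 were higher, of 13, beside 9.08% of all genes. For the difference between the ISO ratios, Mgl2 was at 1.00, Ly75 at 0.69 and Clec4a3 at 0.69, beside 5.82% of 10753 genes that were at least 1.5-fold higher. How many listed lectins had enough UMIs for that comparison was not counted.

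The signalling chain was followed with a list of 27 genes. The adaptor Fcer1g was at 1799, 1564, 1966 and 1970 CPM in WT, WT+ISO, KO-labelled and KO+ISO-labelled, and Tyrobp at 1855, 1525, 1909 and 1846. Hcst, a second adaptor of Clec5a, was at 59.0, 59.6, 67.7 and 70.9 CPM, the kinase Syk at 212, 162, 203 and 218, and the scaffold Card9 at 23.7, 27.8, 22.1 and 23.6. None of these 5 passed 1.5-fold in either ISO comparison. With ISO in WT, 2 of 26 genes with enough UMIs were lower, a share near the 5.50% of all genes: Malt1, a protease of the Card9 complex, at 149 and 70.1 CPM (log2 ratio -1.09, -1.17 to -1.01), and the transcription factor Nfatc2 at 14.3 and 7.96 CPM (-0.85). None of 26 passed in the KO-labelled pair or between the genotypes without ISO. With ISO, Malt1 (1.03), the kinase gene Fgr (0.73) and Nfatc2 (0.74) were higher in KO+ISO-labelled than in WT+ISO, 3 of 26 beside 9.08% of all genes.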

How the data were processed

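The count matrices were made by the authors with 10x Genomics Cell Ranger; the matrix headers name version 7.0.0 and the submitters' processing notes 6.0.0, Seurat and mm10. The deposited values are raw counts, each a number of distinct molecules by identifier (UMI) for a gene in a cell. How introns were treated and how barcodes were kept are not given in the sources used here. Of 9525 cells, 9303 passed a minimum of 200 genes and a limit of 10% on mitochondrial UMIs. Scrublet called 17 cells (0.183%), too few to have worked, so doublets were kept in. Counts were scaled to 10000 per cell, and 2000 variable genes, without the lectin and signalling lists, gave 30 principal components, 15 neighbours and Leiden clusters at resolution 0.4 (seed 0, scanpy 1.11.5, Python 3.11.15). A cluster was named when at least 3 markers of a list fixed for that type were in at least 10% of its cells, their mean log2 ratio was at least 1 and at least 1 was among its 10 leading genes. Those criteria left 2 clusters unnamed.

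UMIs were summed per library, and per cluster and library, and divided by the total to give CPM. Intervals at 95% were exact Poisson for CPM, exact conditional binomial for ratios, exact Clopper-Pearson for shares and normal for the difference of log2 ratios. A gene was counted as higher or lower from 1.5-fold, among genes with at least 100 UMIs in the libraries compared (200 over all 4). With 1 library per group no p-value was computed. Genes were named by rule: the members, genes of the 2 lists past 1.5-fold in a comparison, the adaptors and first kinases, and the 3 genes most alike to each member by Pearson's r of log2(CPM + 1) over sums of at least 50 cells among genes with at least 1000 UMIs. The ratio code was checked on simulated data. The members, lists and comparisons were chosen with earlier results of these data known. The 12 multiplexing tags were not used in the comparisons. Promoter sequences and gene positions came from RefSeq tables of GRCm38.p6 and transcript ends from GENCODE. The gene targeted in the knockout line is not reported here.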

Additional observations from a re-analysis of the deposited data

Results flagged for a closer look

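The sign of the ISO ratio differed between WT and the KO-labelled pair, with both counting intervals off 0, in 3 cases. In whole libraries, Clec4d was at -0.24 in WT and 0.18 in the KO-labelled pair on the log2 scale, and Clec4e at -0.15 and 0.10. In the cluster led by Kcnq5, Clec4n was at 0.33 in WT and -0.65 in the KO-labelled pair. With 1 library per group the difference was not tested in any of them, and for Clec4d in whole libraries the WT sign turned to 0.30 when clusters were weighted alike. Inside the macrophage-like cluster both ratios of Clec4d were above 0.

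The multiplexing tags, outside the comparisons, carried a signal: 1 tag took 95.4% of tag UMIs in WT (CMO301), 97.1% in WT+ISO (CMO302), 97.9% in KO-labelled (CMO303) and 89.9% in KO+ISO-labelled (CMO304), a different tag in each library.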

How the results depend on the processing

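No paired analysis was possible because there was a single library in every group, so nothing could be refitted with a replicate left out or with a block. Of 495 single-gene values under the alternatives, 368 stayed inside their counting interval, 124 moved out of it and 3 that were past 1.5-fold turned direction. All 3 were Clec4n with clusters at fixed weights, at 0.016 with ISO in WT, -0.13 between genotypes with ISO and -0.10 for the difference between ISO ratios. Under that setting the number of members past 1.5-fold was 2 with ISO in WT, 2 between genotypes with ISO and 1 for the difference, in place of 4 each. A minimum of 500 UMIs gave 2 with ISO in WT and 2 between genotypes with ISO, because Clec10a and Clec4a1 were under that minimum. Equal weight per cell gave 2 with ISO in the KO-labelled pair, in place of 0, namely Mrc1 (-0.75) and Clec10a (-0.68). Shares over all genes were computed for the main setting only. The other settings, including totals without the 20 most abundant genes, size factors, stricter and no cell filters, removal of Scrublet calls or of the 5% deepest cells, and, chosen after seeing the data, removal of the cluster led by Gpnmb, left each count within 1.5 times. Members at least 1.5-fold higher in macrophage-like than in azurophil-granule progenitor-like cells were 6 of 9, and 6 or 7 under every other clustering. Mrc1 stayed lower with ISO in WT under all 9 settings, from -2.35 to -1.56. Counting depth limits Clec4a1 and Clec10a most, with 107 and 132 UMIs in WT+ISO.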
